A study of Mus musculus with 24 samples.

Results

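The genes described here encode the protein subunits of oxidative phosphorylation, the respiratory chain and ATP synthase of mitochondria. Members were the protein-coding genes of the count table whose mouse symbol names a structural subunit of complexes I to V (symbols starting with Nduf and a subunit letter and number, Sdha to Sdhd, Uqcr, Cox4 to Cox8 and Atp5), together with the 13 protein genes of the mitochondrial genome. This rule uses names only. It gave 99 of 27179 genes, of which 86 are nuclear and 13 mitochondrial. The nuclear genes divide into 37 of complex I, 4 of complex II, 8 of complex III, 20 of complex IV and 17 of complex V, and the mitochondrial ones into 7, 0, 1, 3 and 2. The subunit gene Ndufb1 was not analysed here.

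The libraries came from Nmur1iCre-eGFP mice, in which cells that express Nmur1, the receptor gene for the neuropeptide neuromedin U (NMU), carry eGFP. All mice had been given 3% dextran sulfate sodium to drink for 5 days, a treatment that injures the lining of the colon, and water for another 3 days, so no group came from an uninjured colon. They were injected intraperitoneally every other day with NMU (mice 1 to 4) or with phosphate-buffered saline (PBS, mice 5 to 8). From the colonic lamina propria of each mouse, 3 populations were sorted: eGFP+ group 2 innate lymphoid cells (ILC2, gated as CD45+ Lin- CD90.2+ CD127+ KLRG1+), eGFP+ CD4 T cells (called NMUR1+ below) and eGFP- CD4 T cells (NMUR1-, both gated as CD45+ CD3+ CD5+ CD4+). This gives 24 libraries in 6 groups of 4. The labels do not give the age of the mice, and the reporter, not the receptor protein, defines NMUR1+ and NMUR1-.

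In oxidative phosphorylation, complexes I and II pass electrons from NADH and succinate to coenzyme Q, complex III passes them on to cytochrome c, and complex IV hands them to oxygen. Complexes I, III and IV pump protons while doing so, and ATP synthase (complex V) uses the proton gradient to make ATP. Complex II is built from nuclear genes alone, while the other complexes combine nuclear subunits, imported as proteins, with core subunits made inside the organelle from mitochondrial DNA. RNAs from the nuclear and from the mitochondrial genome are therefore made by separate machineries, and lymphocytes are known to adjust both when they change their activity. Messenger RNA is measured here, and neither protein nor respiration.

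Stretches of mouse mitochondrial DNA have copies on chromosome 1, so the counts of the mitochondrial members are given beside the sequence they share with other genes. COX2, COX3 and ATP8 had 0 counts in all 24 libraries, ATP6 had 2 counts in all and ND4L had 12. A count of 0 allows up to 3 counts, which is 0.168 to 0.354 CPM (counts scaled to a common library size) by library. ND3 had 259 counts, 2 to 24 per library. The other mitochondrial genes had far more: 832397 for CYTB, 467127 for COX1, 208435 for ND1, 88472 for ND5, 75327 for ND4, 54392 for ND2 and 23832 for ND6. In GENCODE M21 transcripts, every 50-base window of COX2 and 99.9% of those of COX3, 99.5% of ATP6, 98.8% of ND4L and 98.0% of ND3 also occur in another gene. The share was 62.2% for ND4, 51.1% for COX1, 8.2% for ND2, 7.6% for ND5 and 0.0% for ND1, ND6, CYTB and ATP8. ATP8 (chromosome M, 7766 to 7969) therefore had 0 counts with no shared window among annotated transcripts. It starts after the end of COX2 (7696) and overlaps the start of ATP6 (7927). The copies of these neighbours lie near each other on chromosome 1 (Gm28661 at 24614885 to 24615565, Gm10925 at 24613974 to 24614651). The bases between these copies were not compared with ATP8, as no genome was used, so a copy of ATP8 there was not tested. The copies have no row of their own in the count table. How reads with several matches were counted is not given in the sources used here, and its part in these counts was not tested.

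The sequences printed to show how close the copies are begin COX2 and ND3, read from GENCODE M21 transcripts on GRCm38. COX2 (chrM:7013-7072, plus strand, coding sequence) matches the pseudogene Gm28661 (chr1:24615506-24615565, minus strand) in every base of the 681 compared. ND3 (chrM:9459-9518, plus strand) and Gm28438 (chr1:24613060-24613119, minus strand) differ by 1 of 345 bases, T3C counted from 1 at the start of ND3, which is in capitals.
COX2: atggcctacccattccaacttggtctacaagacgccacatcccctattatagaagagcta
Gm28661: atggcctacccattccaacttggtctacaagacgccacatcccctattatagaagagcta
ND3: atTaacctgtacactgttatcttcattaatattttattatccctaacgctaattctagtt
Gm28438: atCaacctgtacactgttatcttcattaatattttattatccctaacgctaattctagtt
COX3 likewise matched Gm28437 over 783 bases with 0 differences, ATP6 matched Gm10925 over 678 with 0 and ND4L matched Gm10222 over 294 with 0. ND4 matched Gm28439 over its first 876 of 1378 bases. COX1 matched Gm29216 over 492 bases with 6 differences. ND1, CYTB and ND6 have no such copy among these transcripts.

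**Figure D1:**
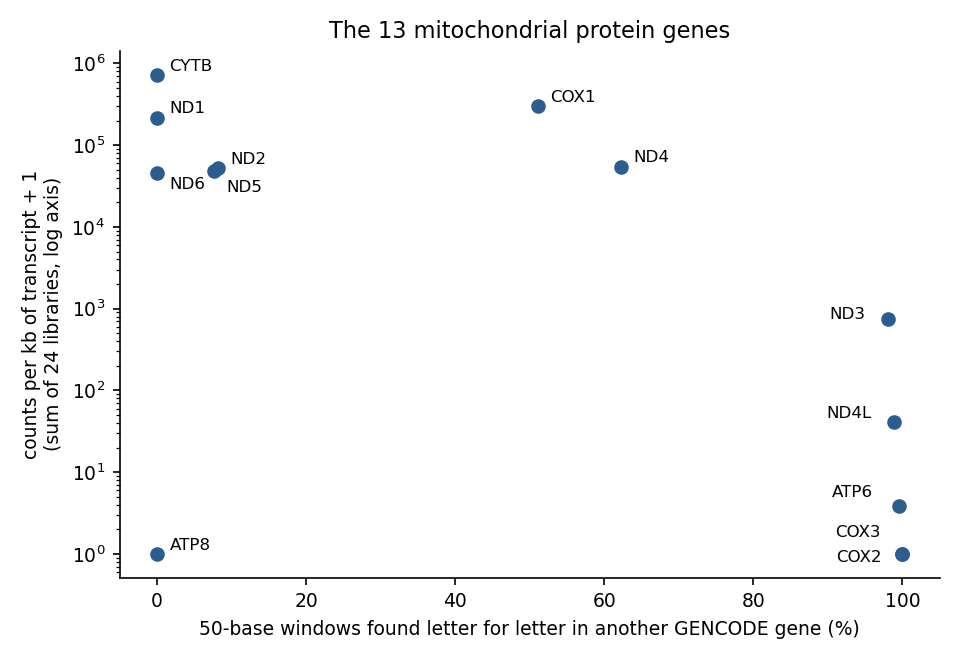
Counts per kilobase of transcript summed over 24 libraries (vertical axis, log scale) for each of the 13 mitochondrial members against the percent of its 50-base windows that occur in another gene (horizontal axis). CYTB, ND1 and ND6 sit at 0.0% with high counts, and COX2, COX3, ATP6, ND4L and ND3 sit at 98.0% or more with 0 to 744.3 counts per kilobase, while ATP8 sits at 0.0% with 0 counts.

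Compared per length, CYTB, the mitochondrial subunit of complex III, had the most counts of the members, with 727620 counts per kilobase over all libraries. COX1, the catalytic subunit of complex IV, had 302348, and ND1, a membrane subunit of complex I, had 217800. The highest nuclear members were Cox4i1 (182817, complex IV), the catalytic beta subunit Atp5b (112020, complex V), Uqcrh (111240, complex III) and Uqcrc1 (101323, complex III). ND4, ND2, ND5 and ND6 lay between 45919 and 54664 counts per kilobase. Several nuclear members also share sequence with processed pseudogenes: Atp5l in 68.5% of its windows, Atp5h in 47.9%, Uqcrb in 43.2%, Ndufb4 in 37.0%, Ndufs3 in 35.8% and Ndufs5 in 31.1%. Their levels are uncertain, as are those of COX1 and ND4, with 51.1% and 62.2% of windows shared. COX2, COX3, ATP6, ND4L, ND3 and ATP8 had few or no counts, so their place in this order is unknown. Of the 86 nuclear members, 10 were too low to test in the population comparisons. These were Cox7b2 and Cox8c (0 counts), Uqcr11 (2), Cox8b (5), Ndufb4b (8), Cox6a2 (55), Ndufa4l2 (55), Ndufb4c (65), Cox4i2 (86) and Cox6b2 (145). That left 76 nuclear and 8 mitochondrial members, and Cox7a1 was also too low in the treatment comparison of ILC2.

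As a share of all counts, nuclear and mitochondrial members both had a higher group mean with NMU than with PBS in each population (the plot of shares by library). In ILC2, nuclear members took 1.10%, 0.941%, 1.11% and 1.02% of counts in the NMU mice 1 to 4 and 0.864%, 0.931%, 0.832% and 0.738% in the PBS mice 5 to 8. Every NMU library was above every PBS library (means 1.04 ± 0.0784 and 0.841 ± 0.0804, SD, n = 4). Mitochondrial members took 0.607%, 0.662%, 0.739% and 0.559% with NMU and 0.493%, 0.539%, 0.564% and 0.476% with PBS, and these groups overlapped slightly (0.642 ± 0.0772 and 0.518 ± 0.0404). In NMUR1+ cells the nuclear share was 0.908 ± 0.210% with NMU and 0.896 ± 0.107% with PBS, and the mitochondrial share 0.512 ± 0.0900% and 0.466 ± 0.0470%. In NMUR1- cells the nuclear share was 1.25 ± 0.228% and 1.18 ± 0.115%, and the mitochondrial share 0.726 ± 0.0801% and 0.646 ± 0.0510%. Within both CD4 populations the treatment groups overlapped for both shares. Over both treatments (n = 8), the nuclear share averaged 0.942% in ILC2, 0.902% in NMUR1+ and 1.22% in NMUR1- cells, and NMUR1- cells had the higher share in 7 of 8 mice against ILC2 and in 8 of 8 against NMUR1+. The mitochondrial share averaged 0.580%, 0.489% and 0.686%, and in 8 of 8 mice it was highest in NMUR1- and lowest in NMUR1+ cells.

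**Figure D2:**
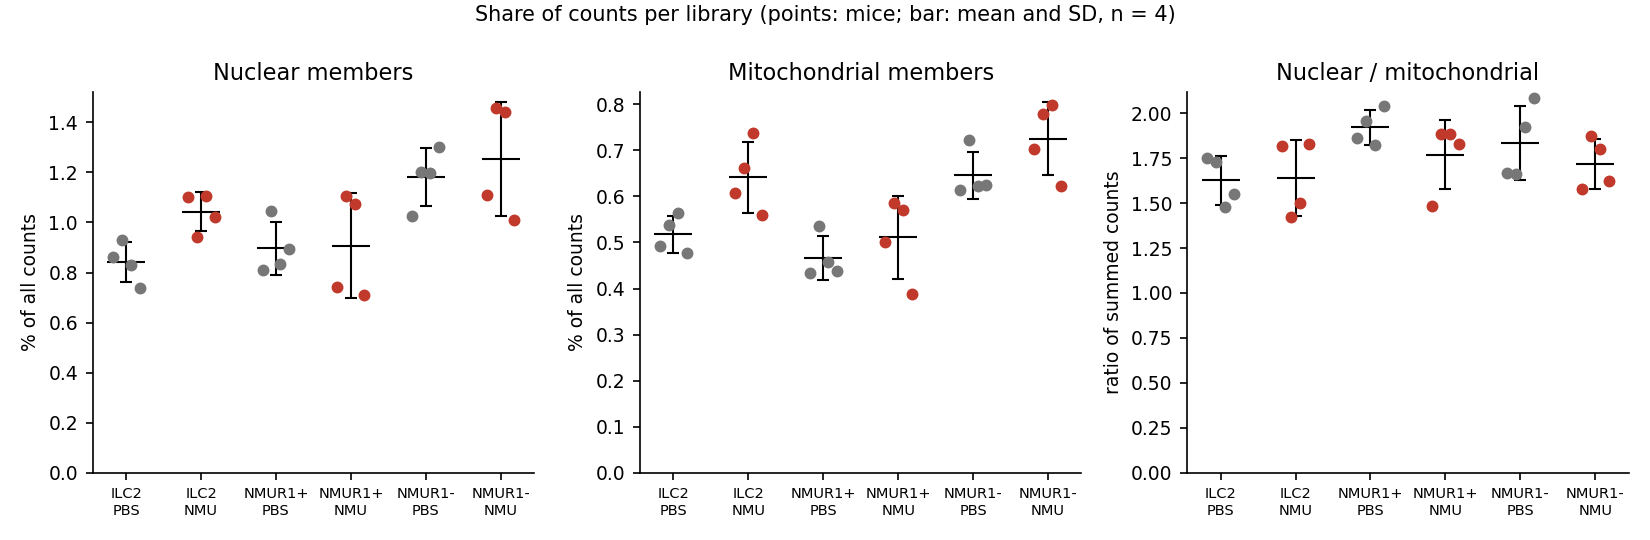
Percent of all counts in nuclear members and in mitochondrial members, and the ratio of the nuclear to the mitochondrial counts, for each library (points) with group mean and SD (n = 4) in the 6 groups. ILC2 libraries with NMU lie above those with PBS for the nuclear share (0.941% to 1.11% against 0.738% to 0.931%), while the ratio of the same groups is 1.64 and 1.63.

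The balance between the genomes was close between treatments in ILC2. In both CD4 populations it had a lower mean with NMU, with overlapping groups. The ratio of nuclear to mitochondrial counts ran from 1.42 to 2.08 over the 24 libraries. This ratio, like the mitochondrial share above, holds almost no counts of COX2, COX3, ATP8, ATP6, ND4L and ND3. Its level therefore does not show which genome gives more RNA. In ILC2 it was 1.64 ± 0.211 with NMU and 1.63 ± 0.136 with PBS, in NMUR1+ cells 1.77 ± 0.194 and 1.92 ± 0.0964, and in NMUR1- cells 1.72 ± 0.140 and 1.83 ± 0.206 (SD, n = 4). On the log2 scale the treatment differences of the ratio were 0.0075, -0.12 and -0.09, all below the pooled SD of 0.14 between libraries of a group. That SD is of single libraries and not of group means, so it is no test of these differences. Between populations (n = 8), ILC2 had a log2 ratio lower by 0.18 than NMUR1+ cells, in 7 of 8 mice, and lower by 0.12 than NMUR1- cells, in 4 of 8 mice. This ratio of summed counts is weighted to abundant genes. Taken as a median over members, ILC2 had a log2 ratio of -0.37 against NMUR1+ and -0.27 against NMUR1- cells.

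Shares of NMUR1+ libraries also depend on how much of their RNA came from other genes. Immunoglobulin genes held on average 17.3% of NMUR1+ counts, against 2.03% in ILC2 and 1.76% in NMUR1- libraries, and exceeded 20% in NMUR1+ libraries of mice 1, 4, 5 and 7. The levels below are CPM on library sizes scaled by the trimmed mean of M values (TMM), and the member counts of each population comparison past the adjusted threshold are also given without those 4 libraries. Total counts ran from 8485266 to 17854961 per library. Of 10 ILC2 genes, 10 were higher in ILC2 than in NMUR1- cells (8 of 10 against NMUR1+), and 9 of 10 CD4 T cell genes were lower. Of all genes, 16.4% were higher in ILC2 than in NMUR1- cells and 15.1% than in NMUR1+ cells, and 24.1% and 23.5% were lower. These lists hold genes of the gates and the reporter, such as Nmur1, Klrg1, Cd4 and Cd5. The counts are therefore no independent check of the sort. In bulk samples, fewer cells of a type and less RNA per cell cannot be told apart.

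Between populations, nuclear members were lower in ILC2 than in NMUR1- cells. Of 76 tested, 46 were lower and 2 higher (edgeR, adjusted p under 0.05), where 24.1% of all 13509 genes tested were lower and 16.4% higher. The median log2 difference was -0.42 over the nuclear members and -0.12 over all genes. In 21 of the 76, ILC2 was the lower of the pair in 8 of 8 mice, against 14.9% of all genes. Without the 4 libraries rich in immunoglobulin, 45 were lower (22.3% of all genes). Those 4 are NMUR1+ libraries outside this comparison, so leaving them out changes only the filter, scaling and shared spread. It is no check on immunoglobulin in the groups compared. With the plasma cell gene Jchain and the macrophage gene Lyz2 as covariates, 36 were lower (19.7% of all genes). By complex, 21 of 35 members of complex I were lower (median -0.42), 1 of 4 of complex II (-0.32), 5 of 7 of complex III (-0.42), 10 of 13 of complex IV (-0.51) and 9 of 17 of complex V (-0.27). The count for complex II is near the share over all genes. Of the mitochondrial members 1 of 8 was lower and 0 were higher, also without the 4 libraries, with a median of -0.07.

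**Figure D3:**
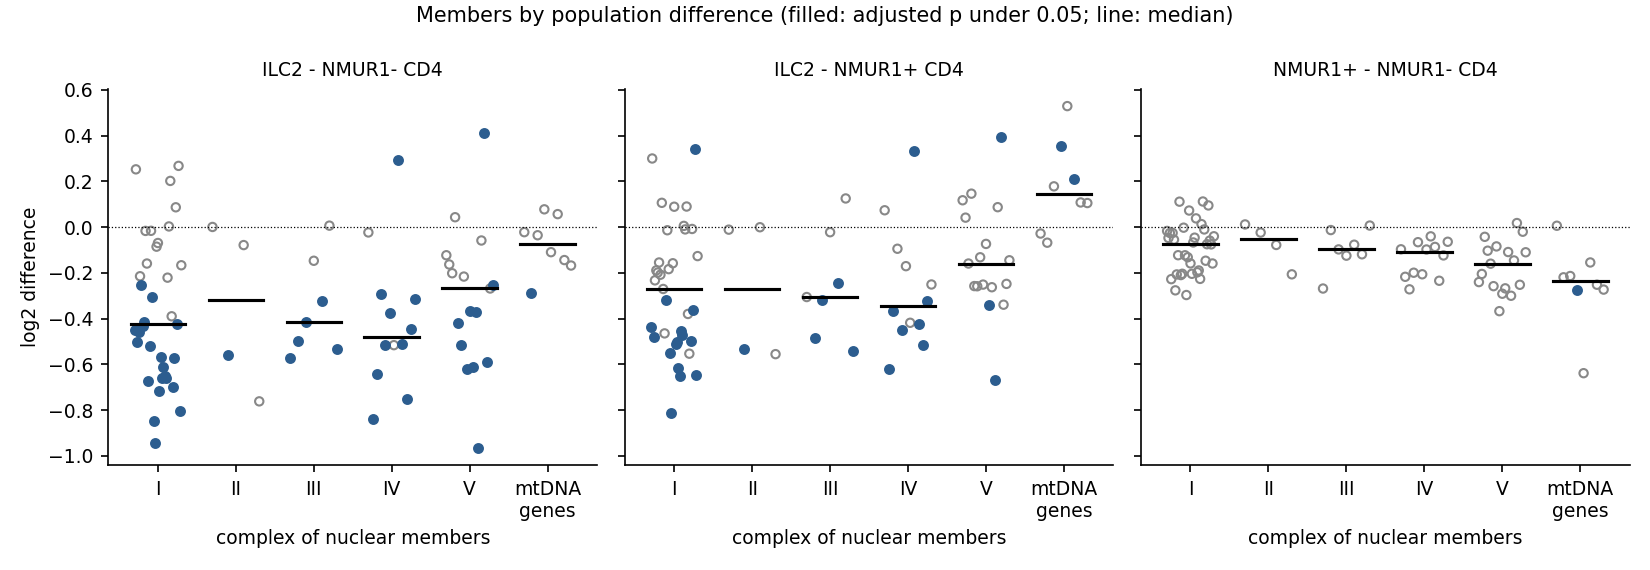
Log2 difference of each tested member between populations, with a point per gene by complex and genome and lines at 0. Nuclear members of ILC2 against NMUR1- cells centre on -0.42 and mitochondrial members on -0.07, and the very low gene Cox7a1 (0.158 to 2.13 CPM) is left out.

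In complex I, the lower members included subunits of the NADH-oxidizing arm and of the membrane arm. Ndufv2 (gene 72900, GRCm38 chromosome 17, 66078795 to 66101559) encodes an iron-sulfur subunit of the part that accepts electrons from NADH. Its lowest, median and highest levels over 8 libraries were 68.9, 92.3 and 130 CPM in ILC2, 131, 143.3 and 167 CPM in NMUR1+ cells and 133, 154 and 221 CPM in NMUR1- cells. All 8 ILC2 libraries lay below all 16 CD4 libraries, with log2 differences of -0.80 ± 0.09 from NMUR1- (SE, edgeR adjusted p = 2.86e-07) and -0.65 ± 0.09 from NMUR1+ cells (7.82e-06). Ndufb2, Ndufb3, Ndufb6 and Ndufb9 are accessory subunits of the membrane arm. Ndufb2 (chromosome 6, 39592565 to 39599843) ran from 18.7 to 28.3 CPM (median 24.6) in ILC2 and from 33.3 to 55.9 CPM (39.9) in NMUR1- cells, with no overlap (log2 -0.85 ± 0.13, adjusted p = 2.16e-05). Ndufb3 (chromosome 1, 58586397 to 58595964) ran from 10.7 to 25.0 CPM (15.3) against 21.9 to 43.2 CPM (31.3), and the ranges overlapped (-0.94 ± 0.16, adjusted p = 5.63e-05). ILC2 were lower in 8 of 8 mice for each of these genes. Ndufb6 was lower by 0.72 ± 0.11 and Ndufb9 by 0.61 ± 0.10 on the log2 scale. Ndufb6 shares 34.1% and Ndufb9 23.4% of their windows with an overlapping gene, so part of their counts may be that gene's.

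The core subunits of complex I were not all lower. Ndufs1, which holds iron-sulfur clusters, did not pass the test in either comparison with ILC2. It had medians of 65.2, 71.0 and 80.4 CPM in ILC2, NMUR1+ and NMUR1- cells and ranges that overlapped in all. Ndufv1, which binds NADH, had medians of 131, 105 and 104 CPM, with ILC2 higher than NMUR1+ cells (0.34 ± 0.13, adjusted p = 0.0379, 7 of 8 mice) and no call against NMUR1- cells (adjusted p = 0.102). That call of Ndufv1 was lost without the 4 libraries rich in immunoglobulin (adjusted p = 0.122), with Jchain and Lyz2 as covariates, without a low-count filter and without mouse 1, 4, 5, 6 or 8. Ndufv1 and Ndufv2 encode neighbours in the same enzyme module, and their differences from NMUR1+ cells had opposite signs.

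In complex II, which oxidizes succinate and has no mitochondrial gene, Sdhb (chromosome 4, 140961271 to 140979198) was lower and Sdha was not. Sdhb, the iron-sulfur subunit, ran from 164 to 341 CPM (median 247) in ILC2, from 310 to 436 CPM (361) in NMUR1+ and from 276 to 494 CPM (354) in NMUR1- cells. It differed by -0.56 ± 0.11 (adjusted p = 2.74e-04) from NMUR1- and by -0.53 ± 0.11 (4.82e-04) from NMUR1+ cells, in 7 of 8 mice each. Sdha, the flavoprotein subunit, had medians of 386, 403 and 402 CPM, and these values did not pass the test.

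In complex III, Uqcrc1, a core subunit, had medians of 478, 576 and 566 CPM in ILC2, NMUR1+ and NMUR1- cells (-0.42 ± 0.10 against NMUR1-, adjusted p = 0.00269). Uqcrfs1, the Rieske iron-sulfur protein, had medians of 209, 247 and 251 CPM (-0.32 ± 0.09, adjusted p = 0.00399). The ranges of ILC2 and CD4 libraries overlapped for both genes, and both were also lower than in NMUR1+ cells.

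In complex IV, Cox5a (chromosome 9, 57517328 to 57532427), a nuclear subunit on the matrix side, ran from 99.6 to 177 CPM (median 151) in ILC2. It ran from 180.9 to 256 CPM (219) in NMUR1+ and from 194 to 384 CPM (240) in NMUR1- cells, so that all ILC2 libraries lay below all CD4 libraries (-0.84 ± 0.13 against NMUR1-, adjusted p = 2.23e-05). An overlapping gene shares 29.2% of the Cox5a windows. Cox4i1, another nuclear subunit, had medians of 451, 438 and 445 CPM and did not pass the test. Cox7a2l (chromosome 17, 83501917 to 83514333), a factor that joins complexes III and IV into supercomplexes, was higher in ILC2, with 142.9 to 217 CPM (median 185) against 131 to 175 CPM (152) in NMUR1- cells (0.29 ± 0.09, adjusted p = 0.0136, 7 of 8 mice). A pseudogene shares 17.7% of the Cox7a2l windows. The muscle isoform Cox7a1 was lower in ILC2 by 1.83 ± 0.51, at levels of 0.158 to 1.29 CPM where few reads carry the value. The isoform Cox7a2 stood at medians of only 4.00, 5.07 and 5.86 CPM and did not pass the test.

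In complex V, the largest difference was that of Atp5k (chromosome 5, 108433246 to 108434399), subunit e of the membrane sector, which takes part in joining ATP synthase into dimers. It ran from 16.2 to 36.5 CPM (median 24.1) in ILC2, from 29.0 to 55.4 CPM (39.5) in NMUR1+ and from 36.2 to 78.8 CPM (46.8) in NMUR1- cells. The ranges overlapped, but ILC2 was lower than the cells of the same mouse in 8 of 8 mice for both CD4 populations (-0.97 ± 0.17 against NMUR1-, adjusted p = 5.84e-05). Atp5md (chromosome 19, 47083471 to 47090647), another dimer subunit, was higher in ILC2, with 56.6 to 86.2 CPM (69.2) against 46.6 to 61.3 CPM (53.3) in NMUR1- cells (0.41 ± 0.10, adjusted p = 0.00286, 7 of 8 mice). The alpha subunit Atp5a1 and the catalytic beta subunit Atp5b did not pass the test. Atp5a1 had medians of 646, 585 and 676 CPM and Atp5b 667.2, 648 and 752 CPM in ILC2, NMUR1+ and NMUR1- cells. The abundant members Atp5a1, Atp5b, Cox4i1 and Sdha were among the 28 nuclear members that passed in neither direction.

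Against NMUR1+ cells, 28 nuclear members were lower in ILC2 and 3 higher, where 23.5% of all genes were lower and 15.1% higher. The 28 were 14 of 35 tested members of complex I, 1 of 4 of complex II, 4 of 7 of complex III, 7 of 13 of complex IV and 2 of 17 of complex V. The count for complex II is near the share over all genes, and that for complex V is below it. The nuclear median was -0.25 against -0.10 over all genes, and 19 nuclear members were lower in 8 of 8 mice, against 12.7% of all genes. Atp5k (-0.67 ± 0.17), Ndufb3 (-0.81 ± 0.16), Ndufb9 (-0.65 ± 0.10) and Cox5a (-0.62 ± 0.13) were among them, and Atp5md (0.39 ± 0.10) and Cox7a2l (0.33 ± 0.09) were higher here too. The calls of Atp5md (adjusted p = 0.0893) and Cox7a2l (0.0886) against NMUR1+ cells were lost without the 4 libraries, and with the covariates (0.172 and 0.229). Both of these fits left 0 nuclear members higher, where 11% and 7.62% of all genes were. Both comparisons use the same ILC2 libraries, so the presence of all 28 among the 46 is no independent result. The count of lower members was 21 without the 4 libraries rich in immunoglobulin, where the share of all genes was 16.9%, and 13 with Jchain and Lyz2 as covariates, where it was 9.68%.

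Of the 8 mitochondrial members, ND2 and ND4 were higher in ILC2 than in NMUR1+ cells, and CYTB was lower than in NMUR1- cells. Of all genes, 15.1% and 24.1% passed in those directions. ND2, a membrane subunit of complex I, ran from 159 to 251 CPM (median 197) in ILC2, from 135 to 182 CPM (154) in NMUR1+ and from 171 to 206 CPM (188) in NMUR1- cells. It was higher in ILC2 than in NMUR1+ cells in 8 of 8 mice (0.35 ± 0.08, adjusted p = 0.00105), and lower in NMUR1+ than in NMUR1- cells in 8 of 8 mice (-0.27 ± 0.08, adjusted p = 0.0315). The latter call of ND2 was lost without the 4 libraries (adjusted p = 0.103), with DESeq2 size factors (0.0591), with the covariates (0.141) and without mouse 1, 3, 4, 6 or 8 (0.0568 to 0.0795). ND4, of the same arm, had medians of 252, 228 and 250 CPM and was higher in ILC2 than in NMUR1+ cells (0.21 ± 0.08, adjusted p = 0.0451), with a copy of much of its sequence on chromosome 1. That call of ND4 was lost without a low-count filter (0.0738), with the covariates (0.0692) and without mouse 2, 3, 7 or 8 (0.0877 to 0.104). For ND1 the medians were 680, 612 and 727 CPM and the difference from NMUR1+ cells missed the threshold (0.18, adjusted p = 0.0569). With the mouse as a block, ND1 passed (0.18, adjusted p = 0.0410).

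CYTB was lower in ILC2 than in NMUR1- cells in 8 of 8 mice, with 2050 to 3264 CPM (median 2404) against 2640 to 3962 CPM (2957). The log2 difference was -0.29 ± 0.09 (adjusted p = 0.00989), and the call was lost with Jchain and Lyz2 as covariates. COX1 had medians of 1472, 1549 and 1583 CPM in ILC2, NMUR1+ and NMUR1- cells, and its differences of -0.02 and -0.03 changed sign under some settings. Over the 8 mitochondrial members the median was 0.14 in ILC2 against NMUR1+ cells, with 2 higher and 0 lower, while the nuclear median was -0.25. Without the libraries rich in immunoglobulin, 3 mitochondrial members were higher, where 11% of all genes were.

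More nuclear members had a lower mean in ILC2 with PBS than with NMU. Of the 76 nuclear members, 65 had their lowest group mean in ILC2 with PBS and 51 their highest in NMUR1- cells with NMU. With PBS, 70 of 76 had a lower mean in ILC2 than in NMUR1- cells (median log2 ratio of means -0.48), and with NMU 60 (-0.34). Against NMUR1+ cells the numbers were 67 (-0.36) with PBS and 55 (-0.15) with NMU. Of the 8 mitochondrial members, 6 had their lowest mean in NMUR1+ cells with PBS, 5 their highest in NMUR1- cells with NMU and 3 in ILC2 with NMU. These summaries are of group means and carry no test. The same counts over all genes were not made. All genes also leaned lower in ILC2, with median log2 differences of -0.12 against NMUR1- and -0.10 against NMUR1+ cells. The counts alone therefore do not set the members apart.

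Transcript length moved with the population difference among nuclear members. Of 43 members with a longest coding transcript under 1000 bases, 32 (74.4%) were lower in ILC2 than in NMUR1- cells (median -0.45). Between 1000 and 2000 bases 11 of 24 (45.8%, -0.29) were lower, and above 2000 bases 3 of 9 (33.3%, -0.12). Over all genes the shares were 34.9%, 27.9% and 22.4%, with medians of -0.29, -0.17 and -0.07. Members were below all genes of their class in each of the 3 classes. Across members, length and log2 difference had a Pearson correlation of 0.30 and a Spearman correlation of 0.28, and across all genes 0.06 and 0.09. Genes are not independent replicates, and these values are a description. Lengths are those of the longest annotated transcript, and which transcript these cells made was not measured. The class above 2000 bases has only 9 members, among them Atp5g1 (4715 bases), Ndufb2 (4371) and Atp5md (2733). The part of length in the result was not tested.

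**Figure D4:**
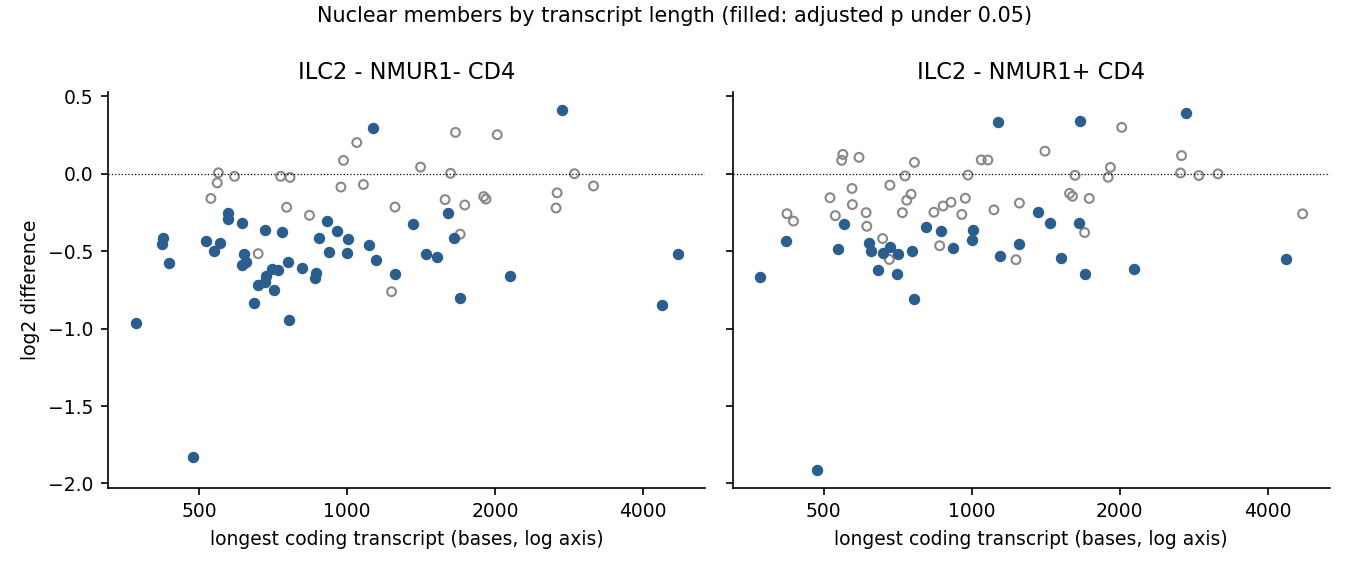
Log2 difference of ILC2 against NMUR1- cells for each tested nuclear member (vertical axis) against the length of its longest coding transcript in bases (horizontal axis, log scale). Members under 1000 bases have a median of -0.45 and those above 2000 bases of -0.12.

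Upstream sequence was compared because so many nuclear members were lower together. The 250 bases before the start were available for 69 nuclear members (RefSeq, GRCm38.p6), 40 of them lower in ILC2 than in NMUR1- cells. Both strands were searched for exact words of factors known to act on respiratory genes. The word GCATGCGC of NRF1, a regulator of nuclear respiratory genes, was found in 8 of 69 windows (11.6%) and in 2.6% of all 27025 windows. The ETS-family word CCGGAAG was in 12 (17.4% against 7.8%), the SP1 word GGGCGG in 25 (36.2% against 35.4%) and CCAAT in 30 (43.5% against 37.5%). No word contains another, and each was counted once per window. Among the 40 lower members, 5 (12.5%) held the NRF1 word and 7 (17.5%) the ETS word, and among the other 29 members 3 (10.3%) and 5 (17.2%) did. A word is a match of letters and not a shown binding site.

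The windows of the 4 nuclear members with no overlap between ILC2 and NMUR1- libraries and the smallest p-values are printed with their words in capitals. They are Ndufv2 (chr17:66101560-66101809, minus strand, SP1 words on both strands), Ndufb6 (chr4:40279422-40279671, minus strand, an ETS word and a pair of SP1 words on the reverse strand), Ndufb2 (chr6:39592315-39592564, plus strand, CCAAT 79 bases before the start) and Cox5a (chr9:57520982-57521231, plus strand, an SP1 word 13 bases before the start). The start used for Cox5a in the RefSeq window table lies inside the RefSeq extent of the gene given above, so its window is upstream of that start and not of the whole gene.
Ndufv2: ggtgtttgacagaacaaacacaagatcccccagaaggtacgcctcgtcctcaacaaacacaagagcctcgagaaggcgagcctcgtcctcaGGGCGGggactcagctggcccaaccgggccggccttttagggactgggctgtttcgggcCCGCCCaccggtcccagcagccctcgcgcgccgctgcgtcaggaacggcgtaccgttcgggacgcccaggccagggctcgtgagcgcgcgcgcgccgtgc
Ndufb6: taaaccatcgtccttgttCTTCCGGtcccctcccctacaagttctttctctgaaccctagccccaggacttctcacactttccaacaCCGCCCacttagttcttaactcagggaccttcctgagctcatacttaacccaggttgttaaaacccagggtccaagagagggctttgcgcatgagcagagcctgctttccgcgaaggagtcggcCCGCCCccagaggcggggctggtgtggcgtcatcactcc
Ndufb2: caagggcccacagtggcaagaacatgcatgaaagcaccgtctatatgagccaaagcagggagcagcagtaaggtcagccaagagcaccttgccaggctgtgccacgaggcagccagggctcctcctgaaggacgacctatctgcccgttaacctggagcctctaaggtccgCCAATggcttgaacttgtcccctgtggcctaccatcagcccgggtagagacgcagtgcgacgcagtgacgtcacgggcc
Cox5a: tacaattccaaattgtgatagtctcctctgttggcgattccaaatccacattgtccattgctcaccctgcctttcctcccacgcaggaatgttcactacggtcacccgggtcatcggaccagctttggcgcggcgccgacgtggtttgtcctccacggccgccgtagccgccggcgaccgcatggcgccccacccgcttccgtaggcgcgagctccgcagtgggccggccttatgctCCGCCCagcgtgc
The SP1 word is in the windows of Ndufv2, Ndufb6 and Cox5a and not in that of Ndufb2. The NRF1 word is in none of the 4. Since a word was required, these windows do not show how common the words are.

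Between the CD4 populations, nuclear members differed little. Of 76, 0 were higher and 0 lower in NMUR1+ than in NMUR1- cells (edgeR), 6 were lower at an unadjusted p under 0.05 (9.02% of all genes), and DESeq2 and limma voom each called 1 lower, Atp5g3 (3.45% and 4.17% of all genes). The counts were also 0 and 0 without the 4 libraries. Of all genes, 5.49% were higher and 2.83% lower. The median was -0.11, and 4 members were lower in 8 of 8 mice against 6.31% of all genes. Atp5g3, a subunit of the c ring of ATP synthase, ran from 114 to 180 CPM (median 151) in NMUR1+ and from 149 to 246 CPM (182) in NMUR1- cells (-0.37 ± 0.12, adjusted p = 0.0508). Atp5b was also the lower of the pair in 8 of 8 mice (-0.20 ± 0.08, adjusted p = 0.117). The mitochondrial members had a median of -0.24, with 1 lower (ND2) and 0 higher, and 1 and 0 without the 4 libraries. ND1 (-0.21 ± 0.07), ND5 (-0.25 ± 0.09) and ND6 (-0.27 ± 0.10) had adjusted p-values of 0.0749, 0.0867 and 0.107.

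Genes that build, feed or regulate the respiratory chain were mixed. Over 10 lists, 44 of 166 tested genes were lower and 19 higher in ILC2 than in NMUR1- cells, near the shares of all genes (24.1% and 16.4%). The counts of single lists are a description, and several lie at those shares. Of 15 tested genes of complex I assembly, 2 were lower and 0 higher, and 1 of these, Ndufaf8, was lost with the mouse as a block (adjusted p = 0.0554). Of 23 for complexes IV and V, 8 were lower and 2 higher. Cox10, which makes the heme precursor of complex IV, was higher at 119.5 to 167.9 CPM against 35.4 to 65.5 CPM (1.51 ± 0.15). The assembly factor Coa7 was lower at 4.83 to 24.8 CPM against 29.9 to 44.0 CPM (-1.56 ± 0.24). Of 21 genes for complexes II and III and electron carriers, 3 were higher and 2 lower, with the electron carrier cytochrome c, Cycs, among the higher (0.35 ± 0.11, adjusted p = 0.0111).

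Of 16 genes of mitochondrial DNA maintenance and transcription, 4 were lower and 1 higher, with the elongation factor Tefm (-1.47 ± 0.35) and the polymerase subunit Polg2 (-1.12 ± 0.13) among the lower. The higher gene, Polg, was lost with the mouse as a block (adjusted p = 0.0778). Of 19 genes of mitochondrial RNA processing, 4 were lower and 2 higher. Of 13 regulators of biogenesis, 5 were higher and 2 lower: Myc, a growth regulator, ran from 167 to 678 CPM in ILC2 and from 70.3 to 123 CPM in NMUR1- cells (1.85 ± 0.18). The coactivator Ppargc1b was higher at 3.07 to 18.2 CPM against 0.510 to 4.48 CPM (1.97 ± 0.60).

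Of 18 genes of the citric acid cycle, which supplies NADH and succinate, 5 were lower and 2 higher. Idh3a, an NADH-producing enzyme, ran from 109 to 140 CPM against 173 to 333 CPM (-0.76 ± 0.11), and the citrate synthase gene Cs was lower too (-0.68 ± 0.15). Of 17 glycolysis genes 10 were lower and 1 higher, Slc2a1, the glucose transporter (117 to 180 CPM against 56.3 to 77.8). The glycolytic enzymes Tpi1 (-1.27 ± 0.16) and Pgk1 (-1.06 ± 0.14) led the lower ones. Of 12 carriers of the inner and outer membrane, 3 were lower and 1 higher, the phosphate carrier Slc25a3 (0.83 ± 0.09). Of 12 antioxidant genes, 4 were lower and 2 higher, with the lipid peroxide reductase Gpx4 at 252 to 536 CPM against 84.3 to 132 CPM (1.62 ± 0.14). The lower gene Glrx5 of this list was lost with the mouse as a block (adjusted p = 0.0881). Against NMUR1+ cells the counts in the same order of lists, lower and higher, were 0 and 0 for complex I assembly, 6 and 2 for complexes IV and V, and 2 and 3 for complexes II and III. They were 2 and 1 for mitochondrial DNA, 1 and 2 for mitochondrial RNA, 0 and 5 for biogenesis, 1 and 1 for the citric acid cycle, 10 and 3 for glycolysis, 2 and 2 for carriers and 4 and 2 for antioxidants. Over the 10 lists 28 of 166 tested genes were lower and 21 higher, both below the shares of all genes (23.5% and 15.1%).

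Markers of other cells and of stress moved with the population comparisons. Of all genes, 16.4% were higher in ILC2 than in NMUR1- cells, and 15.1% were higher and 23.5% lower than in NMUR1+ cells. In NMUR1+ cells 5.49% were higher than in NMUR1- cells. Of 12 stress and immediate early genes, 9 were higher in ILC2 than in either CD4 population, and the list took 1.66% to 3.13% of ILC2 counts, 0.474% to 0.936% of NMUR1+ and 0.291% to 0.898% of NMUR1- counts. Of 11 plasma and B cell genes, 11 were lower in ILC2 than in NMUR1+ cells, where the list took 0.228% to 7.17% of counts, and 7 were higher in NMUR1+ than in NMUR1- cells. No plasma cell marker was at 0 in all libraries of any group. Of 12 macrophage and dendritic cell genes, 11 were lower in ILC2 than in NMUR1+ cells. Their part in the member differences was not tested, beyond the fits without the 4 libraries and with Jchain and Lyz2 given above.

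With NMU, nuclear members in ILC2 had higher values than with PBS, but 0 of 75 passed the adjusted threshold in edgeR, where 0.66% of all 11205 genes passed. Of the 75, 70 had a positive log2 difference with a median of 0.28, against -0.03 over all genes. At an unadjusted p under 0.05, 15 were higher and 0 lower, against 6.08% of all genes higher. In 9, every NMU library was above every PBS library, against 4.58% of all genes. The medians by complex were 0.26, 0.34, 0.41, 0.27 and 0.23 for complexes I to V. All 8 mitochondrial members were positive, with a median of 0.25 and 1 (CYTB) at an unadjusted p under 0.05. DESeq2 called 4 nuclear members higher (Atp5c1, Ndufv2, Uqcrq and Sdhb), where it called 2.2% of all genes higher. An edgeR fit over all 24 libraries called 8, where it called 3.67% of all genes.

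**Figure D5:**
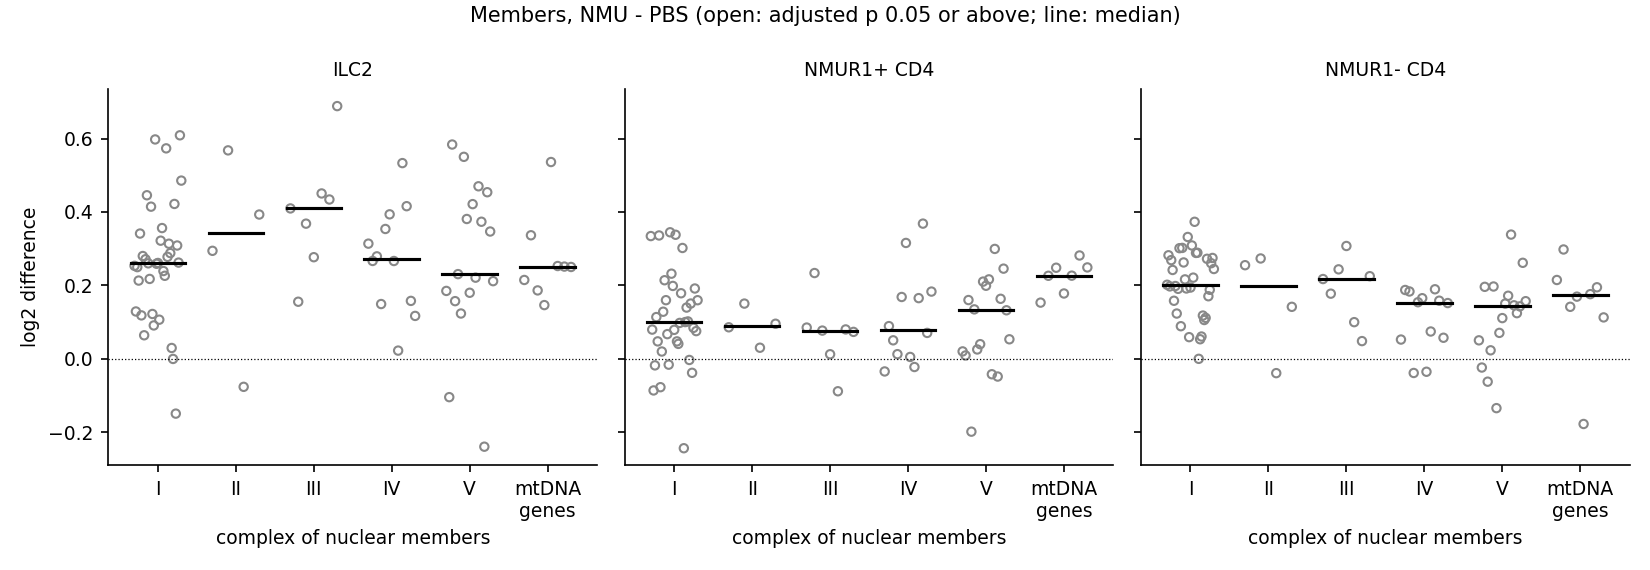
Log2 difference of NMU against PBS for each tested member (points) in the 3 populations, nuclear and mitochondrial members apart, with lines at 0. The nuclear medians are 0.28 in ILC2, 0.09 in NMUR1+ and 0.18 in NMUR1- cells and the mitochondrial ones 0.25, 0.23 and 0.17, and the very low gene Cox7a1 is left out.

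The member with the smallest p in ILC2 was Atp5c1 (gene 11949, chromosome 2, 10056030 to 10080510), the rotating gamma subunit of ATP synthase. Its levels were 466, 386, 461 and 444 CPM in NMU mice 1 to 4 and 308, 301, 310 and 239 CPM in PBS mice 5 to 8. The groups were apart (0.58 ± 0.13, edgeR adjusted p = 0.0793, DESeq2 adjusted p = 9.83e-04). Ndufv2, described above, stood at 117, 113, 130 and 104 CPM with NMU and at 80.3, 72.0, 79.3 and 68.9 CPM with PBS. Again the groups were apart (0.61 ± 0.14, edgeR adjusted p = 0.104, DESeq2 0.00688). In NMUR1+ and NMUR1- cells Ndufv2 overlapped between treatments, so the ILC2 libraries with NMU came nearer to the CD4 range of 131 to 221 CPM without reaching it.

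Uqcrq (chromosome 11, 53427922 to 53430831), a small subunit of complex III, was at 106, 78.2, 98.9 and 109 CPM with NMU and 65.5, 63.7, 57.4 and 53.7 CPM with PBS (0.69 ± 0.17, edgeR adjusted p = 0.106). Sdhb was at 314, 250, 341 and 327 CPM with NMU and 244, 221, 192 and 164 CPM with PBS (0.57 ± 0.16, adjusted p = 0.143). Both genes had every NMU library above every PBS library, and for Sdhb mouse 2 with NMU lay close to mouse 5 with PBS. Uqcrfs1, the Rieske protein, was at 247, 212, 255 and 275 CPM with NMU and 182, 152, 205 and 175 CPM with PBS (0.45 ± 0.14, adjusted p = 0.201). Among the mitochondrial members, CYTB was at 2789, 2964, 3264 and 2371 CPM with NMU and 2184, 2225, 2436 and 2050 CPM with PBS. Mouse 4 with NMU fell within the PBS range (0.34 ± 0.12, adjusted p = 0.247).

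Of 163 tested genes in the 10 related lists, 1 passed in ILC2, a share near the 0.66% of all genes. It was Sdhaf1, an assembly factor of complex II. It stood at 91.6, 96.1, 106 and 84.6 CPM with NMU and at 54.2, 57.1, 44.7 and 49.1 CPM with PBS, with the groups well apart (0.86 ± 0.16, edgeR adjusted p = 0.0456). Its partner subunit Sdhb is the protein that Sdhaf1 helps to fit with iron-sulfur clusters.

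Other RNA also differed between the ILC2 groups. The plasma and B cell list took 0.0930% to 0.185% of counts with NMU and 0.223% to 1.65% with PBS (8 of 9 tested genes negative, median -3.21). Macrophage and dendritic cell genes took 0.00678% to 0.0864% and 0.0133% to 0.231% (11 of 11 negative, -1.81), and fibroblast genes 0.00014% to 0.0041% and 0.00139% to 0.0482% (8 of 8 negative, -3.81). The stress list took 1.66% to 2.30% with NMU and 2.41% to 3.13% with PBS, with 11 of 12 genes negative (median -0.52) and 1, Junb, lower. Mitochondrial ribosomal RNA took 0.736% to 0.983% with NMU and 0.363% to 0.709% with PBS. Itgax, Lum, Mgp, Muc2, Fcgbp, Cdh5, Des and Myh11 were at 0 in all 4 ILC2 libraries with NMU, and Slc26a3 and Kdr in those with PBS. Length moved with the NMU values over all genes, with medians of 0.20 under 1000 bases, 0.11 from 1000 to 2000 and -0.09 above. The members of these classes had medians of 0.28, 0.30 and 0.13. The part of these in the NMU values was not tested.

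In the CD4 populations 0 members passed the adjusted threshold (edgeR), as did 0% of all 12061 genes in NMUR1+ and 0% of all 12103 in NMUR1- cells. In NMUR1+ cells 62 of 76 nuclear members were positive (median 0.09), 1 was higher at an unadjusted p under 0.05 against 1.23% of all genes, and 0 had separate groups against 1.04%. Without the 4 libraries rich in immunoglobulin the median was 0.24. In NMUR1- cells 69 of 76 were positive (median 0.18), 3 were higher at an unadjusted p under 0.05 against 1.71%, and 3 had separate groups against 1.91%. The counts at an unadjusted p under 0.05 and of separate groups rest on 0 to 3 members. They are near the shares over all genes in NMUR1+ and above them in NMUR1- cells. Over all genes, 6125 of 12061 were positive in NMUR1+ cells, and the medians were 0.0047 there and 0.0097 in NMUR1- cells. Genes are not independent replicates, and these counts are a description. The mitochondrial members were positive in 7 of 7 tested (median 0.23) in NMUR1+ and in 7 of 8 (0.17) in NMUR1- cells. ND5 in NMUR1+ cells was at 338, 305, 279 and 253 CPM with NMU and 255, 249, 238 and 225 CPM with PBS, overlapping only between mice 4 and 5 (0.28 ± 0.13, unadjusted p = 0.0488 in edgeR).

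Whether the NMU effect differed between populations was tested directly. Between ILC2 and NMUR1- cells 0 of 76 nuclear members passed (0.533% of all genes did), 5 were higher at an unadjusted p under 0.05 (4.43% of all genes), and 53 were positive with a median of 0.12. Between ILC2 and NMUR1+ cells 0 passed (0.725% of all genes), 5 were higher at an unadjusted p under 0.05 (5.4%), and 65 were positive with a median of 0.20. Uqcrfs1 (0.56 ± 0.17, edgeR adjusted p = 0.127), Uqcrq (0.63 ± 0.20, 0.151) and Ndufv2 (0.55 ± 0.19, 0.166) had the smallest p-values, and DESeq2 called 1 higher, Uqcrfs1 (adjusted p = 0.0319), where it called 1.46% of all genes. Between NMUR1+ and NMUR1- cells 0 passed (0% of all genes), 0 were higher at an unadjusted p under 0.05 (0.755%), and 27 were positive (median -0.10). The mitochondrial medians of the same differences were 0.06, 0.0034 and 0.06, with 0 members past the adjusted threshold. No nuclear member therefore had an NMU effect in ILC2 that differed from that in CD4 T cells past the adjusted threshold in edgeR.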

How the data were processed

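RNA was measured in 24 libraries, 1 per population and mouse. The labels' protocols name the RNeasy Micro Kit for extraction and, for libraries, a NEBNext kit for low input that marks neither strand nor molecules. The submitters' processing notes name STAR 2.5.3 and mm10. How reads were assigned to genes, and those with several matches treated, is not given in the sources used here. In the deposited file the values are raw counts per gene for 27179 identifiers, of which 25275 (93.0%) were matched to RefSeq symbols of GRCm38.p6, the assembly of mm10. The others held 0.986% of counts. Reads are amplified copies, so the floor of 3 counts covers counting error only. Replicates differed by a chi-square of at least 16.55 per degree of freedom, so each library counted as 1 replicate. The series' design text gives 3 mice per treatment, while the labels name 4, which were used.

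All genes were tested with edgeR 4.0.16 (R 4.3.3) on the counts: filterByExpr with a minimum count of 10, TMM scaling, robust quasi-likelihood fits and Benjamini-Hochberg adjustment over all genes, threshold 0.05. NMU was compared with PBS on the 8 libraries of a population. Populations and differences between NMU effects were tested in 1 fit of 24 libraries. Alternatives used DESeq2 1.42.0, limma 3.58.1, other filters and scaling, the mouse as a block, and fits without single libraries. Same-numbered libraries come from the same mouse, and their mean correlation of deviations ran from 0.037 to 0.291 against -0.097 to -0.012 for other mice. Treatment groups share no mouse. The fits were tested on simulated data. Spread within a group holds that between mice and that of sorting and library preparation.

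Members and lists were chosen with earlier results of these data known. Members were matched by current symbol. A preset member is not reported here. Named were preset core subunits and up to 5 members per direction with the largest log2 differences, past the threshold and with at least 10 CPM. The same sign in every mouse was not required. Also named were the members with the smallest p-values where fewer passed, and up to 3 genes per related list and direction. Length classes, summaries of group means, Cox7a1, Cox7a2, Ndufb6 and the choice of preset members whose log2 values are given were decided after values were seen. Sequences are from GENCODE M21 and RefSeq.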

Additional observations from a re-analysis of the deposited data

Results flagged for a closer look

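Of 138 groups of 4 libraries tested for a value far from the other 3, 10 were singled out, where chance gives about 1 in 20. In each, the gap to the nearest library took more of the group's range than Dixon's 95% critical value allows.

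Single nuclear members stood apart mostly in NMUR1+ cells. Ndufv1 stood at 137 CPM in mouse 3 with NMU (the others 101.9 to 105) and at 65.9 CPM in mouse 8 with PBS (the others 105 to 111). Uqcrfs1 stood at 221 CPM in mouse 4 with NMU, below 246 to 251 in the others. With PBS, Sdha was at 349.9 CPM in mouse 7 (398 to 404 in the others) and Cox5a at 221 CPM in mouse 5 (215.9 to 216.0). In ILC2 with PBS, Atp5b was at 801 CPM in mouse 6, above 663.4 to 675.

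Mitochondrial members account for the rest. In NMUR1+ cells with NMU, mouse 1 had a ratio of nuclear to mitochondrial counts of 1.48, below 1.83 to 1.89 in the others, and ND4 at 294 CPM, above 230 to 236. In NMUR1- cells with PBS, mouse 6 had 0.722% of counts in mitochondrial members, above 0.614% to 0.624%, and CYTB at 3100 CPM, above 2640 to 2674.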

How the results depend on the processing

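Most counts and medians kept within 1.5 times or within the replicate spread, and the exceptions follow. The cause was not tested for any. In ILC2, NMU against PBS gave 4 nuclear members higher with DESeq2 and 8 in the fit of all 24 libraries, against 0. With Jchain and Lyz2 as covariates, ILC2 against NMUR1- gave 4 nuclear members higher and 0 mitochondrial members lower. Of all 13509 genes, 1811 were higher and 2659 lower there. With the same covariates ILC2 against NMUR1+ gave 0 nuclear members higher, 13 lower, 1 mitochondrial member higher and a mitochondrial median of 0.28. Of all 13509 genes, 1029 were higher and 1307 lower there. Without NMUR1+ libraries above 20% immunoglobulin, ILC2 against NMUR1+ gave 0 nuclear members higher (1572 of all 14293 genes were). Without a low-count filter it gave 1 mitochondrial member higher (1969 of all 19712 genes were). NMUR1+ against NMUR1- gave 1 nuclear member lower with DESeq2, limma voom and without immunoglobulin genes. These settings called 466, 564 and 401 of all genes lower. The same comparison gave 0 mitochondrial members lower with DESeq2 size factors, 2 with limma voom and 0 with the covariates. Over all genes 308, 564 and 87 were lower there. The difference of NMU effects between ILC2 and NMUR1- cells had a nuclear median of -0.0935 with the covariates, and that between NMUR1+ and NMUR1- cells 0.0624 without the 4 libraries. DESeq2 called 1 nuclear member in the difference between ILC2 and NMUR1+. Taken as a median over members, the log2 ratio of nuclear to mitochondrial levels was -0.27 for ILC2 against NMUR1- and -0.37 against NMUR1+ cells.

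Leaving out 1 mouse gave 36 to 48 nuclear members lower and 1 to 2 higher in ILC2 against NMUR1-. Against NMUR1+ cells it gave 20 to 31 nuclear members lower and 1 to 3 mitochondrial members higher. Of the 13659 to 13805 genes tested in these fits, 2919 to 3088 were lower and 1906 to 2250 higher against NMUR1-. Against NMUR1+ cells 2779 to 3055 were lower and 1832 to 2044 higher. NMUR1+ against NMUR1- gave 0 to 1 lower for each genome, where 218 to 335 of all genes were lower. COX1 changed sign in ILC2 against NMUR1- with DESeq2 size factors (0.0087), with DESeq2 (0.0088), with the covariates (0.0552) and without single mice (-0.0729 to 0.0200), as did ND1 without 1 mouse (-0.0724 to 0.0124). Against NMUR1+ cells COX1 was 0.0934 with the covariates and -0.0434 to 0.0252 without single mice, and between CD4 populations -0.0042 without a filter, -0.0381 with the covariates and -0.0587 to 0.0481 without single mice.

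With the mouse as a block, ILC2 against NMUR1- gave 2 nuclear members higher and 48 lower. ILC2 against NMUR1+ gave 4 and 29 with 3 mitochondrial members higher, and NMUR1+ against NMUR1- gave 0 and 0. Of all 13509 genes, 2022 were higher and 3463 lower, 1948 and 3168, and 749 and 391 in the same order. The block lost the calls of Ndufaf8 (adjusted p = 0.0554), Polg (0.0778) and Glrx5 (0.0881), gained that of ND1 and changed no other call of a named gene. Of 118 calls of named genes, 58 held in every alternative. COX2, COX3, ATP8, ATP6 and ND4L had 0 to 2 counts per library, and no difference in them was detectable.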
